A study of Porolithon cf. onkodes and Sporolithon durum with 38 samples.

Results

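Sporolithon durum (S. durum) is a crustose coralline alga, a red alga that lays down calcite in its cell walls and cements reef surfaces. The question here was how its transcript levels at reduced seawater pH compared with those at ambient pH, with temperature taken into account. Of the 19 S. durum libraries, among 38 samples in the whole series, 16 were analysed: 9 from algae at pH 7.7 and 7 from algae at pH 8.0. The libraries were chosen by their labels and then by their values, since 3 libraries (SD1, SD2 and SD5; SD and a number name a library as in the labels) were left out because their counts stand apart from the rest, as given below.

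The 9 libraries at pH 7.7 (pCO2 of 1000 µatm) were 5 from the combined treatment T + pH (29.5 °C) and 4 from the treatment pH (27.2 °C). The 7 libraries at pH 8.0 (450 µatm) were 3 from elevated temperature alone (T, 29.5 °C) and 4 from the control (27.2 °C). Every library was made from the pigmented surface tissue of 1 wild-collected adult fragment from the reefs around Lizard Island, kept for 3 months in flow-through aquaria. Epiphytes were cleaned off as far as possible, but other organisms in or on the skeleton may remain, and the tissue could not be checked against marker genes, because the transcripts have no gene names here beyond the 4 given next. RNA was measured by CEL-Seq2, which reads the 3′ end of each transcript and counts unique molecular identifiers (UMIs), so that 1 molecule copied many times is counted once. Levels are given in CPM, the usual unit of counts relative to the total of their library, here after TMM scaling of the totals. In such bulk tissue, fewer cells of a type and less RNA per cell cannot be told apart.

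Lower seawater pH goes with more dissolved CO2 and bicarbonate and with less carbonate ion. Coralline algae fix this carbon in their plastids and raise the pH at the site where calcite forms, which costs more energy in more acidic water. Genes commonly followed in algae under such conditions include those of glycolysis, protein folding and signalling by protein phosphorylation.

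A protein match and a pair of PCR primers are given here for 4 transcripts, and the primers are printed because they tie these transcripts to a sequence that can be looked up and measured again. They run 5′ to 3′, forward first, and each primer has 20 bases.
GAPDH, DN199936_c0_g1_i2, forward: acaactcgcaggaaagctca
GAPDH, DN199936_c0_g1_i2, reverse: tgctttcatcggtgccctta
HSP33, DN197763_c0_g2_i5, forward: catcggtccaggtcactacg
HSP33, DN197763_c0_g2_i5, reverse: atcgcggcatagaactgagg
Serine/threonine protein phosphatase, DN198856_c0_g2_i4, forward: atgcaggcccttgagtttgt
Serine/threonine protein phosphatase, DN198856_c0_g2_i4, reverse: tgataccgttgctctgccag
Acetyl-CoA, DN199578_c0_g1_i2, forward: agacggtgcagttggagatc
Acetyl-CoA, DN199578_c0_g1_i2, reverse: atatccccaccttccgatgc

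No transcript passed the test for a difference between pH 7.7 and pH 8.0. Of 39230 transcripts tested, 0 (0%) passed an FDR below 0.05 together with an absolute log2 fold change above 0.3 in edgeR's quasi-likelihood test, with pH and temperature as terms of 1 model. The FDR is the Benjamini-Hochberg adjusted p, and its smallest value was 0.572. At an unadjusted p below 0.05 there were 1904 transcripts, 4.85% of those tested: 717 (1.83%) were higher at pH 7.7 and 1187 (3.03%) lower. The same call was made for 0 transcripts by DESeq2 and by limma-voom, with 1350 and 1816 transcripts at an unadjusted p below 0.05. With isoforms summed to 27926 Trinity genes, which are groups of assembled transcripts taken to come from 1 gene, 0 passed (0%), the smallest FDR was 0.485 and 1543 had an unadjusted p below 0.05. No transcript had separate ranges either: in 0 of the 39230 (0%) did all 9 libraries at pH 7.7 lie above, or all lie below, the 7 at pH 8.0.

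**Figure D1:**
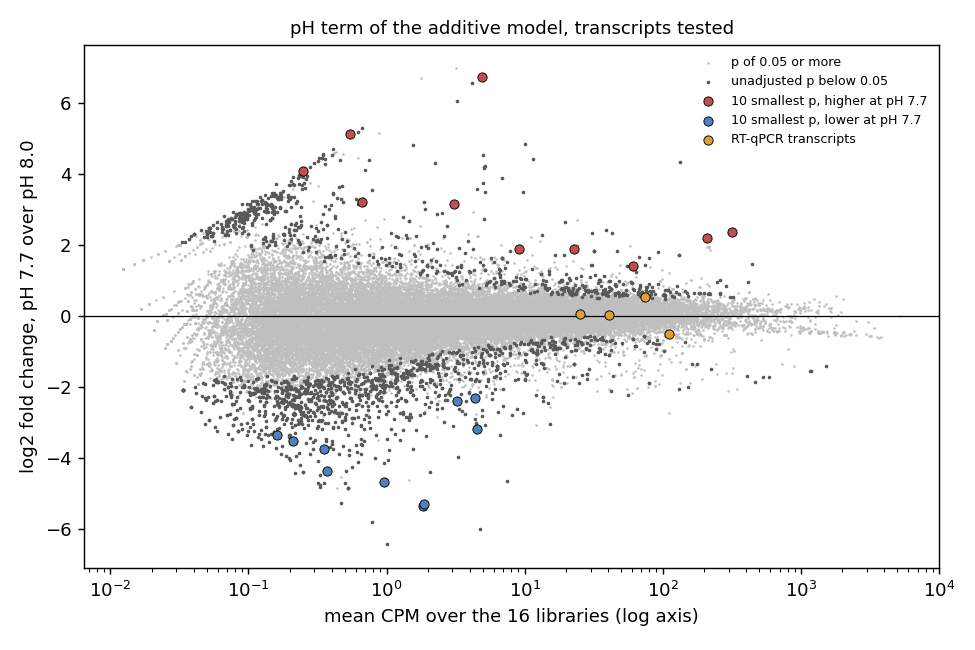
Log2 fold change of pH 7.7 over pH 8.0 against the mean CPM of the 16 libraries (log axis) for the 39230 transcripts tested. Points with an unadjusted p below 0.05 (1904) are dark grey, the named transcripts are coloured, and the fold changes spread widest among transcripts of low abundance.

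The libraries differed widely in depth at both pH levels. Total counts were 948133 to 21542260 at pH 7.7 (median 2565129), against 262942 to 9499485 at pH 8.0 (median 1403593). The log10 total averaged 6.42 ± 0.40 at pH 7.7 and 6.24 ± 0.54 at pH 8.0 (SD, n = 9 and n = 7; exact permutation within temperature, two-sided, p = 0.467, 0.701 adjusted over 3 measures). With every library thinned to 262942 counts, 19937 ± 692 transcripts were detected at pH 7.7 and 20117 ± 993 at pH 8.0 (exact permutation p = 0.737, adjusted 0.737). The 10 most abundant transcripts held 3.27 ± 1.22% of the counts at pH 7.7 and 4.14 ± 2.67% at pH 8.0 (exact permutation p = 0.409, adjusted 0.701). This share was taken without thinning, and depth enters it: it was lowest in the deepest library (SD9, 0.747%) and highest in the shallowest (SD18, 9.57%). After temperature, pH accounted for 6.47% of the squared distance between libraries in log2 CPM, against a mean of 6.68% over all 3920 arrangements of the pH labels within temperature (one-sided exact permutation p = 0.544), and temperature after pH for 6.32%. The median rank correlation of CPM was 0.875 between libraries that were both at pH 7.7, 0.851 between those both at pH 8.0 and 0.860 between 1 of each.

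**Figure D2:**
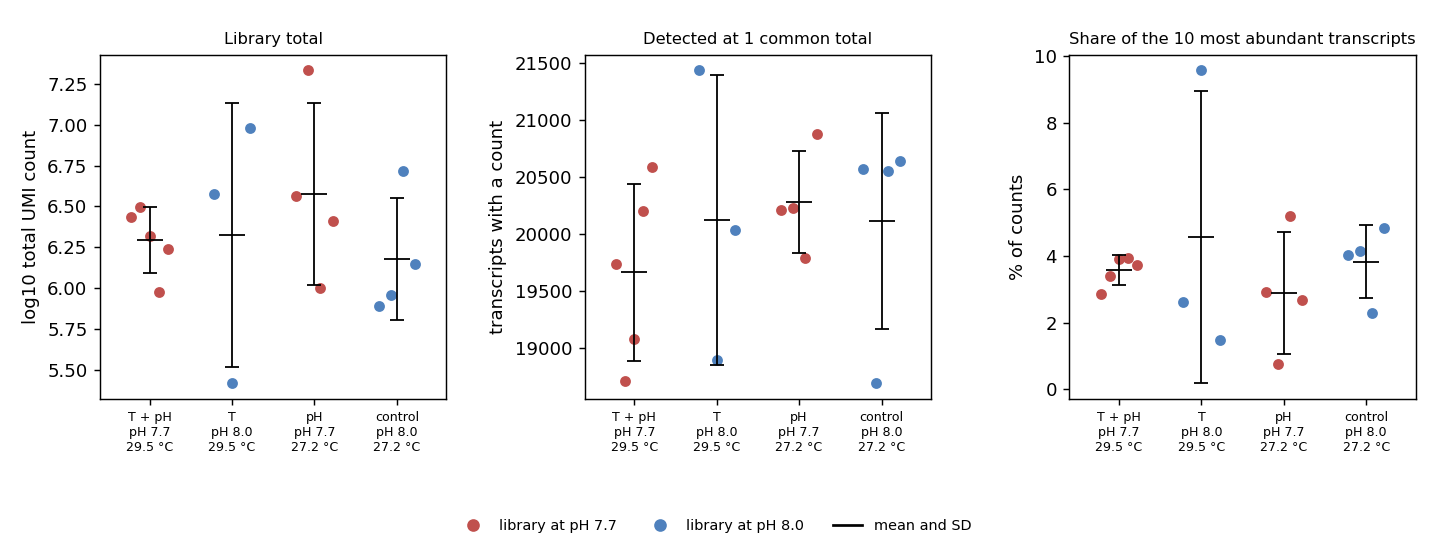
Log10 total UMI count, transcripts detected at 262942 counts and percent of counts in the 10 most abundant transcripts, by treatment, with points for libraries and bars for the mean and SD. The pH 7.7 and pH 8.0 libraries overlap in all 3 measures, and SD9 at pH 7.7 is the deepest and SD18 at pH 8.0 the shallowest.

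The labels of these columns disagree with another record of the study. Its supplementary table of sequencing statistics lists a count total for each library name, and only 1 of the 19 S. durum columns, SD10, has the total listed for its own name. Read by total instead of by name, 6 of the 16 libraries keep their treatment and 10 keep their pH. Another 3 would move from pH 7.7 to pH 8.0 (SD9, SD12 and SD19) and 3 from pH 8.0 to pH 7.7 (SD4, SD13 and SD18). Names were used throughout, and by total the pH term again gave 0 calls, with 2305 transcripts at an unadjusted p below 0.05. SD1, SD2 and SD5 had a median rank correlation of 0.157 with the 16, against 0.863 among the 16. The highest correlation of any of those 3 with any of the 16 was 0.236, and the lowest between any pair of the 16 was 0.749. With all 19 libraries the pH term also gave 0 calls.

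The 20 transcripts with the smallest p, 10 in each direction and 1 for each Trinity gene, were selected on the contrast itself, so their values describe the extremes of 39230 tests and none passed the FDR. Among the 10 higher at pH 7.7, 4 averaged 10 CPM or more over the 16 libraries, while the 10 lower ones were all scarcer. No protein is known here for any of them.

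DN193847_c0_g2_i1 had the smallest p among those higher at pH 7.7. It had 24.2 CPM in the lowest, 91.2 in the median and 137 in the highest library at pH 7.7, against 13.6, 32.2 and 40.1 CPM at pH 8.0. In 8 of 9 libraries at pH 7.7 it lay above all 7 at pH 8.0, and SD12 of T + pH was the exception. Its mean was 83.1 ± 38.5 CPM at pH 7.7 and 31.3 ± 9.38 CPM at pH 8.0 (SD, n = 9 and n = 7), a log2 fold change of 1.40 ± 0.31 (SE; unadjusted p = 0.00012, FDR = 0.572, edgeR). The fold change was 1.57 at 27.2 °C and 1.23 at 29.5 °C.

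DN200148_c2_g1_i1 was the most abundant of the 20. It had 46.1 CPM in the lowest, 575 in the median and 1160 in the highest library at pH 7.7, against 55.2, 88.3 and 178 CPM at pH 8.0. The pH 7.7 libraries were 6 that lay above all 7 at pH 8.0, with 265 CPM or more, and 3 that did not. The 6 were all 4 libraries of the treatment pH (SD3, SD9, SD11 and SD14) and SD7 and SD15 of T + pH, while SD6, SD12 and SD19, also of T + pH, had 98.2, 46.1 and 111 CPM. The log2 fold change was 2.36 ± 0.53 (SE; FDR = 0.572, edgeR), with 2.47 at 27.2 °C and 2.24 at 29.5 °C. Of the 3 low libraries, SD12 and SD19 are among those that would move to pH 8.0 by total, as is SD9, and by total the log2 fold change was 1.99 and again did not pass.

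DN199673_c1_g3_i1 followed the same libraries. It had 45.0 CPM in the lowest, 334 in the median and 666 in the highest library at pH 7.7, against 37.6, 66.9 and 121 CPM at pH 8.0. The same 6 libraries lay above all at pH 8.0, with 227 CPM or more. Its log2 fold change was 2.21 ± 0.50 (SE; FDR = 0.572, edgeR), and by total 1.73, which did not pass either.

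Several other transcripts were ordered over the 16 libraries much as DN200148_c2_g1_i1 was. This transcript was picked for the comparison after its values were seen, and the correlations share the same libraries and depths. Of 12738 transcripts with a mean of 10 CPM or more, 5 had a Spearman correlation above 0.9 with it and 18 above 0.8. DN199673_c1_g3_i1 was the most alike at 0.985, then DN200717_c1_g4_i2 at 0.912, and both DN199673_c1_g5_i4 and DN199673_c1_g5_i3, isoforms of a neighbouring Trinity gene in the same assembly cluster, were above 0.90. DN200717_c1_g4_i2 had 66.3 to 615 CPM at pH 7.7 (median 297) and 90.4 to 299 CPM at pH 8.0 (median 167), with a log2 fold change of 1.01 ± 0.35 (SE; FDR = 0.891, edgeR). DN199673_c1_g5_i4 had 4.61 to 153 CPM at pH 7.7 (median 64.2) and 5.36 to 27.1 CPM at pH 8.0 (median 13.5), with 2.35 ± 0.69 (SE; FDR = 0.887, edgeR). None of these passed the test, and their ranges overlapped between the pH levels.

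DN201080_c0_g1_i3 had 15.2 CPM in the lowest, 29.6 in the median and 49.4 in the highest library at pH 7.7, against 1.82, 5.86 and 35.7 CPM at pH 8.0. All but 1 library at pH 8.0, SD13 of the control, lay below every library at pH 7.7. The log2 fold change was 1.88 ± 0.48 (SE; FDR = 0.797, edgeR), with 1.03 at 27.2 °C and 3.26 at 29.5 °C, where it did not pass in edgeR (FDR = 0.843) but did in DESeq2 (3.27, FDR = 0.00907). DESeq2 adjusts p after its own default filtering, so the 2 FDRs may cover different sets of transcripts. Without SD13, which removes that exception, the log2 fold change of the pH term was 2.59 and passed the test (FDR = 0.0334). It was the single call of the pH term in that setting, and this transcript passed for the pH term in no other alternative. By total it was 0.52 (FDR = 1). Its isoform DN201080_c0_g1_i4 had a log2 fold change of 1.26 ± 0.39 and its isoform DN201080_c0_g1_i2 one of 0.01 ± 0.46 (SE; FDR = 0.887 and 1, edgeR). Isoforms of 1 Trinity gene can share reads at their 3′ ends, so the split between them is uncertain.

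The other 6 of the 10 higher transcripts were scarce. DN171931_c0_g1_i1 had 0 to 21.7 CPM at pH 7.7 (median 3.73; 181 counts) and 0 to 0.188 CPM at pH 8.0 (1 count), and DN189492_c1_g1_i1 had 0 to 17 CPM at pH 7.7 (median 3.05; 231 counts) and 0 to 1.22 CPM at pH 8.0 (13 counts). Both had 7 of 9 libraries at pH 7.7 above all 7 at pH 8.0. For DN171931_c0_g1_i1 the pooled ratio was 92.7 (exact binomial 95% interval 16.4 to 3680), and for DN189492_c1_g1_i1 it was 9.10 (5.22 to 17.4). DN192573_c0_g1_i1 had 2.52 to 33.7 CPM at pH 7.7 and 0 to 4.62 CPM at pH 8.0 (log2 fold change 1.88 ± 0.54, SE; FDR = 0.887, edgeR). DN193531_c3_g1_i1 had 37 counts in 8 of 9 libraries at pH 7.7 and 2 counts in 2 of 7 at pH 8.0. DN187382_c0_g1_i1 and DN40174_c0_g1_i1 had no count at pH 8.0, with 26 and 27 counts in 6 of 9 libraries each at pH 7.7, which makes them at least 4.44-fold and 4.61-fold higher against a limit of 3 counts over the group. These intervals and limits cover counting error only. The deep library SD9 held 69.2% of the counts of DN187382_c0_g1_i1, and SD7 held 59.3% of those of DN40174_c0_g1_i1. In CPM, SD9 did not stand apart for DN187382_c0_g1_i1, with 0.711 against 1.02 in SD15. SD7 did for DN40174_c0_g1_i1, with 5.34 against 1.11 in the next library.

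**Figure D3:**
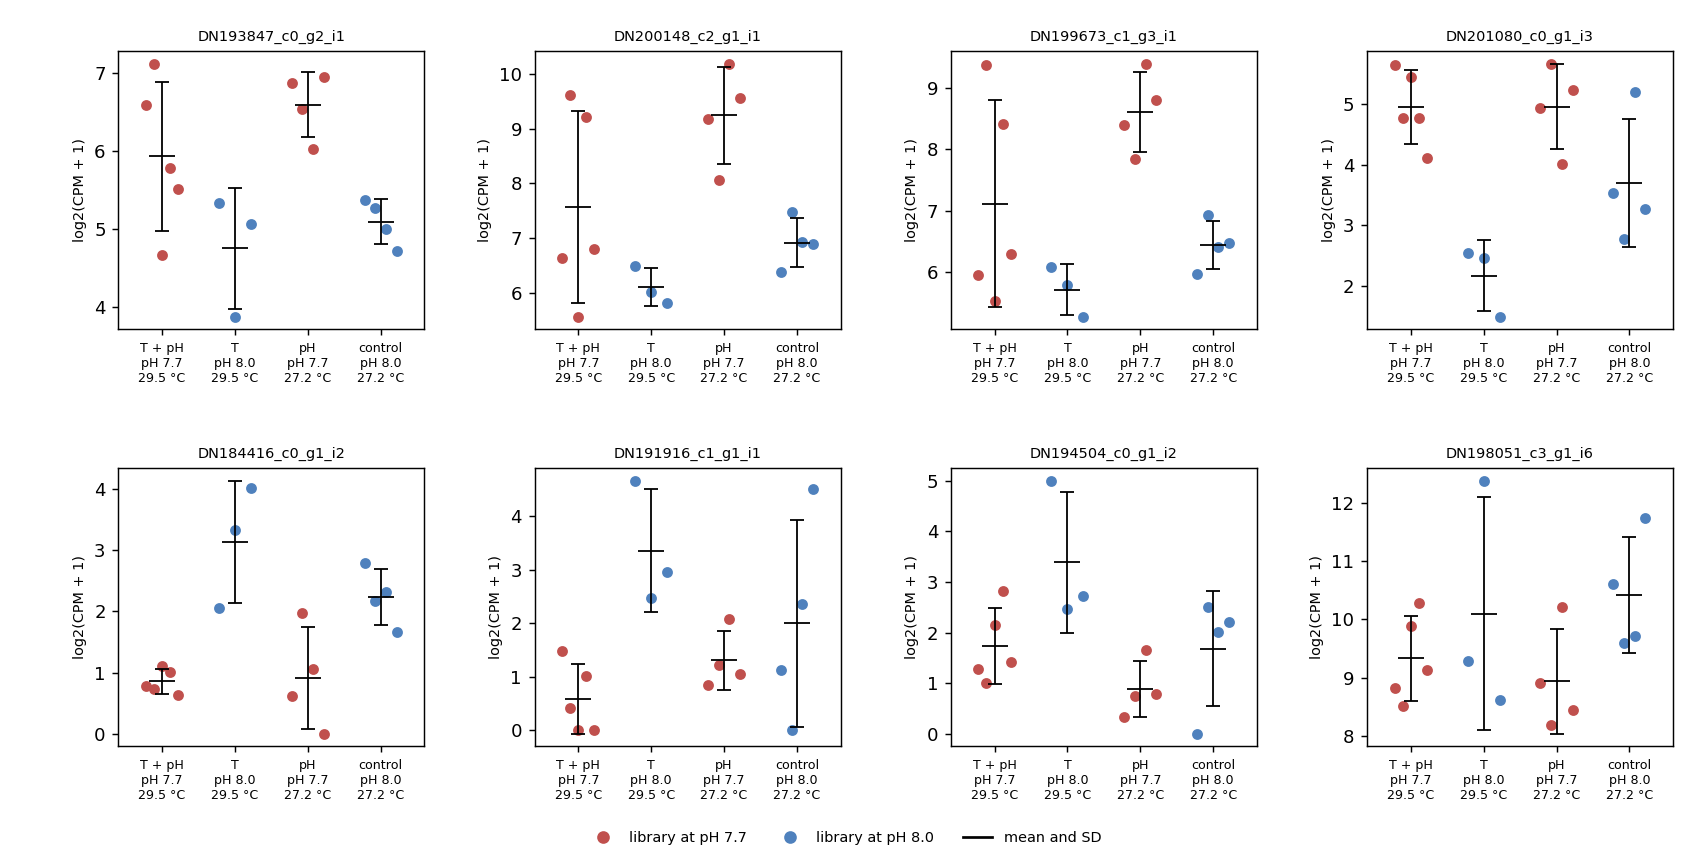
Log2(CPM + 1) by library and treatment for 8 transcripts, with the mean and SD of each treatment. The upper 4 had higher means at pH 7.7 (83.1 against 31.3 CPM for DN193847_c0_g2_i1), the lower 4 had lower means (0.960 against 6.12 CPM for DN184416_c0_g1_i2), and every panel shows overlap between the pH levels.

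The 10 lower transcripts with the smallest p were all under 10 CPM on average. DN184416_c0_g1_i2 had 0 CPM in the lowest, 0.712 in the median and 2.92 in the highest library at pH 7.7, against 2.17, 3.95 and 15.1 CPM at pH 8.0. In 8 of 9 libraries at pH 7.7 it lay below all at pH 8.0, and the deep library SD9 was the exception. The log2 fold change was −2.38 ± 0.56 (SE; FDR = 0.572, edgeR), with −1.47 at 27.2 °C and −3.49 at 29.5 °C. Over both temperatures, SD20 of T held 75% of the counts at pH 8.0. Its Trinity gene had a log2 fold change of −2.49 ± 0.53 (FDR = 0.485) and passed the test without SD9 (−3.29, FDR = 0.0183). Leaving out SD9 removes the exception just given, and of the 16 settings that left out 1 library only this 1 gave a pass.

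DN191916_c1_g1_i1 had 0 CPM in the lowest, 1.02 in the median and 3.25 in the highest library at pH 7.7, against 0, 4.52 and 24.3 CPM at pH 8.0. In 5 of 7 libraries at pH 8.0 it lay above all 9 at pH 7.7. The shallowest library, SD18, was 1 of the 5 and gave the pH 8.0 median of 4.52 CPM from 1 count. The log2 fold change was −3.19 ± 0.69 (SE; FDR = 0.572, edgeR). DN194504_c0_g1_i2 had 0.266 CPM in the lowest, 1.42 in the median and 6.09 in the highest library at pH 7.7, against 0, 4.52 and 30.9 CPM at pH 8.0. This pH 8.0 median was again that of SD18, with 1 count. Only SD8 of T stood above all of pH 7.7, with 62.0% of the counts at pH 8.0, and the log2 fold change was −2.31 ± 0.54 (SE; FDR = 0.572, edgeR).

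The remaining 7 lower transcripts had 1 to 5 counts in all at pH 7.7. DN25411_c0_g1_i1, with the smallest p of all (1.5e-05, FDR = 0.572, edgeR), had 1 count in 1 of 9 libraries at pH 7.7 and 16 counts in 5 of 7 at pH 8.0. Its pooled ratio was 0.032 (exact binomial 95% interval 0.000763 to 0.206). That interval covers counting error only and leaves out differences between libraries. DN188288_c0_g1_i2, DN189069_c0_g1_i1 and DN200323_c1_g1_i5 had 10 to 15 counts at pH 8.0. At pH 7.7 the single library with a count was SD9 for all of these. DN127013_c0_g2_i1 had 1 count at pH 7.7 and 122 at pH 8.0, of which SD8 of T held 99.2%. DN245878_c0_g1_i1 and DN170507_c0_g1_i1 had 2 and 5 counts at pH 7.7 and 27 and 45 at pH 8.0, of which SD17 of the control held 51.9% and 68.9%. Leaving out SD20 of T gave 2 calls of the pH term, both lower and both with nearly all of their counts in SD8. They were DN127013_c0_g2_i1 (FDR = 0.0287, 99.2% in SD8) and DN220222_c0_g1_i1 (FDR = 0.0153, 99.4% in SD8), of which DN220222_c0_g1_i1 was outside the naming rule and chosen after its values were seen.

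The split between higher and lower moved with abundance. Below 1 CPM (mean over the 16 libraries), 7.18% of 14515 transcripts had an unadjusted p below 0.05, 361 higher and 681 lower at pH 7.7. From 1 to 10 CPM there were 133 higher and 336 lower, 3.92% of 11977. From 10 to 100 CPM the numbers turned to 185 higher and 155 lower, 3.15% of 10797. At 100 CPM or more there were 38 higher and 15 lower, 2.73% of 1941. No FDR was below 0.572 in any of these classes. The 95% interval of the log2 fold change lay within −1 and 1 for 66.9% of transcripts from 10 to 100 CPM and for 70.5% at 100 CPM or more, but for 11.7% from 1 to 10 CPM and 0.841% below 1 CPM, so a 2-fold difference could be bounded mainly among the abundant transcripts.

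Large differences at 10 CPM or more were more often lower than higher at pH 7.7. These transcripts were counted after their values were seen, and no test was made of them as a list. Of the 12738 transcripts with a mean of 10 CPM or more, 104 had a log2 fold change above 1 and 202 had one below −1. Both directions together were 2.32% of transcripts from 10 to 100 CPM and 2.83% at 100 CPM or more. Of the 104 higher ones, 17 (16.3%) had over 50% of the summed CPM at pH 7.7 in 1 library, and 101 had the same sign at both temperatures. Of the 202 lower ones, 136 (67.3%) had over 50% of the summed CPM at pH 8.0 in 1 library, and 149 had the same sign at both temperatures. Over all 12738, 55.3% had the same sign, while the share with 1 such library was not taken. The members were picked by the difference itself, and the groups held 9 and 7 libraries. The shares in the 2 directions are therefore not like for like. The library with the highest CPM was SD17 of the control for 54 of the 202, SD20 of T for 43 and SD8 of T for 37. One of the lower ones, DN197762_c0_g1_i1, also chosen after its values were seen, had 5.34 to 31.1 CPM at pH 7.7 (median 11.9) and 13 to 140 CPM at pH 8.0 (median 31.7). Its log2 fold change was −1.66 ± 0.39 (SE; FDR = 0.572, edgeR), −1.22 at 27.2 °C and −2.09 at 29.5 °C. One of the higher ones, DN193193_c0_g1_i3, chosen likewise, had 0 to 1070 CPM at pH 7.7 (median 17.3) and 0.723 to 43.3 CPM at pH 8.0 (median 4.70), and a log2 fold change of 4.33 ± 1.65 (SE; FDR = 0.974, edgeR).

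None of the 200 most abundant transcripts, which held 17.9% of the counts, passed the test. Their log2 fold changes ran from −1.55 to 0.55 with a median of −0.22, against −0.04 over all transcripts tested and 0.05 at 100 CPM or more. SD9 at pH 7.7 had counts close to a possible UMI limit, as given below. It was the lowest pH 7.7 library for DN198016_c0_g5_i1, DN198567_c2_g1_i1, DN198051_c3_g1_i6 and DN200306_c1_g1_i1, but not for DN195530_c0_g1_i2 or DN201181_c0_g1_i1. How far such a limit moved the median of the 200 was not tested. Of the 200, 3 had an unadjusted p below 0.05 (1.5%, against 4.85% of all tested), all lower at pH 7.7, and 104 (52.0%) had a 95% interval within −1 and 1. The 3 were isoforms of DN198051_c3_g1.

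DN198051_c3_g1_i6 had 289 CPM in the lowest, 478 in the median and 1240 in the highest library at pH 7.7, against 393, 837 and 5330 CPM at pH 8.0. Only SD18, SD17 and SD4 at pH 8.0 stood above all of pH 7.7. The log2 fold change was −1.55 ± 0.52 (SE; unadjusted p = 0.00803, FDR = 0.891, edgeR), −1.53 at 27.2 °C and −1.57 at 29.5 °C, and by total it was 0.28 (FDR = 1), in the other direction. Its isoforms DN198051_c3_g1_i5 and DN198051_c3_g1_i1 had log2 fold changes of −1.55 ± 0.52 and −1.41 ± 0.48 (SE), and since isoforms can share reads, the 3 are not independent of each other.

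The other abundant transcripts named had an unadjusted p of 0.114 to 0.194. DN200306_c1_g1_i1 averaged 1330 ± 401 CPM at pH 7.7 and 1880 ± 1500 CPM at pH 8.0, a log2 fold change of −0.55 ± 0.34, and DN201181_c0_g1_i1 averaged 590 ± 415 CPM at pH 7.7 and 1070 ± 1160 CPM at pH 8.0, a log2 fold change of −0.94 ± 0.58 (SE). In the other direction, DN198016_c0_g5_i1 averaged 2130 ± 1210 CPM at pH 7.7 and 1400 ± 726 CPM at pH 8.0 (0.55 ± 0.38), DN198567_c2_g1_i1 averaged 2310 ± 1310 CPM at pH 7.7 and 1600 ± 707 CPM at pH 8.0 (0.49 ± 0.37), and DN195530_c0_g1_i2 averaged 670 ± 309 CPM at pH 7.7 and 511 ± 255 CPM at pH 8.0 (0.46 ± 0.34). All of these had an FDR of 1 in edgeR, with pH 7.7 and pH 8.0 libraries overlapping. Within SD9 the most abundant transcripts came close to 16384, the number of tags that 7 random bases allow, with a largest count of 16373. The largest counts at pH 8.0 were 15937 in SD13 and 15385 in SD20, where DN201181_c0_g1_i1 held that count. The length of the UMI is not given in the sources used here, and with counts corrected for such a limit the pH term again gave 0 calls.

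None of the 4 transcripts with a protein match passed the test. GAPDH, an enzyme of glycolysis that the study used as a PCR reference, had 47.9 CPM in the lowest, 71.7 in the median and 174 in the highest library at pH 7.7, against 49.0, 111 and 280 CPM at pH 8.0. For DN199936_c0_g1_i2, its transcript, the log2 fold change was −0.51 ± 0.32 (SE; 95% interval −1.17 to 0.14; FDR = 1, edgeR).

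HSP33 is a chaperone first known from bacteria, which is switched on by oxidation. Its transcript, DN197763_c0_g2_i5, had 28.4 CPM in the lowest, 84.2 in the median and 133 in the highest library at pH 7.7, against 12.3, 57.4 and 115 CPM at pH 8.0. The highest values were those of SD19 at pH 7.7 and SD20 at pH 8.0, both at 29.5 °C. The log2 fold change was 0.53 ± 0.37 (SE; 95% interval −0.23 to 1.29; FDR = 1, edgeR), with 0.53 at either temperature, so a 2-fold higher level lay within the interval.

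The serine/threonine protein phosphatase removes phosphate groups that kinases add to proteins. DN198856_c0_g2_i4 had 27.3 CPM in the lowest, 43.6 in the median and 68.0 in the highest library at pH 7.7, against 16.6, 41.6 and 59.9 CPM at pH 8.0, with a log2 fold change of 0.03 ± 0.26 (SE; 95% interval −0.51 to 0.58; FDR = 1, edgeR). The transcript matched to acetyl-CoA, a name that is that of a metabolite and leaves the enzyme open, was DN199578_c0_g1_i2. It had 9.14 CPM in the lowest, 23.7 in the median and 42.6 in the highest library at pH 7.7, against 7.23, 18.1 and 49.5 CPM at pH 8.0. Its log2 fold change was 0.05 ± 0.42 (SE; 95% interval −0.81 to 0.92; FDR = 1, edgeR). Of these 4 transcripts, 0 had an unadjusted p below 0.05, against 4.85% of all transcripts tested.

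**Figure D4:**
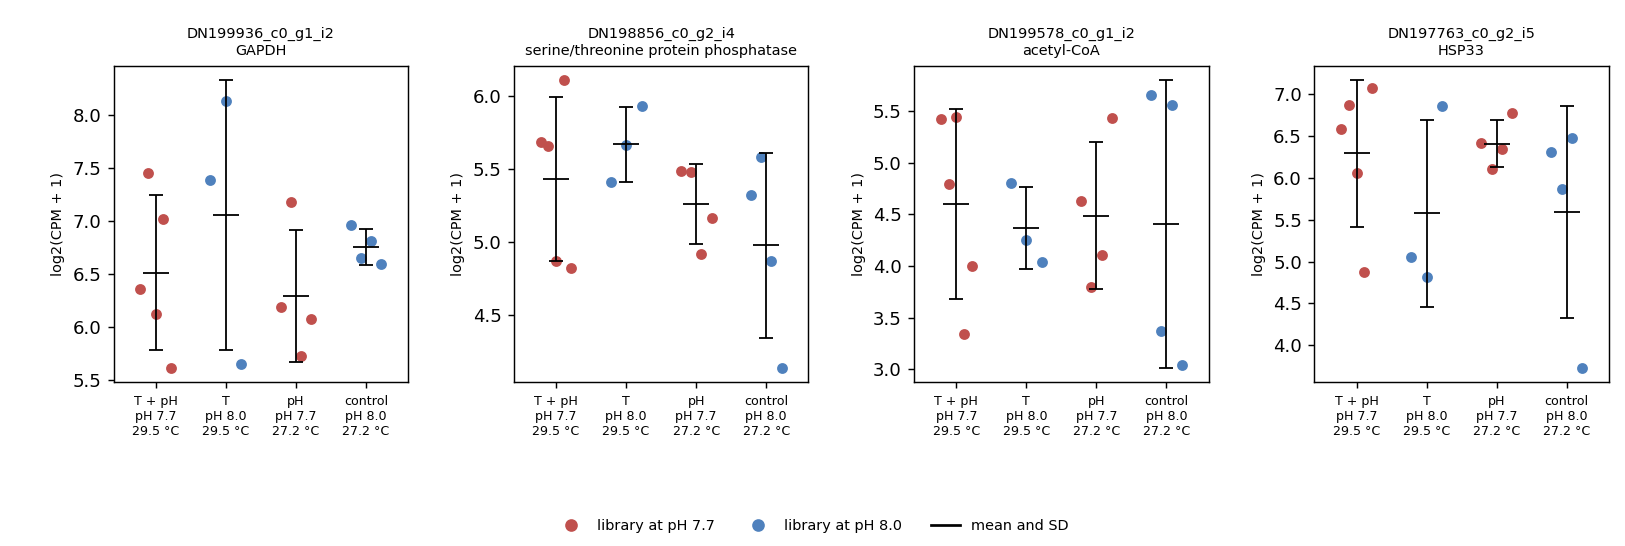
Log2(CPM + 1) by library and treatment for the 4 transcripts with a protein match, with the mean and SD of each treatment. Libraries at pH 7.7 and at pH 8.0 overlap in all 4 panels, for HSP33 from 28.4 to 133 CPM against 12.3 to 115 CPM.

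The effect of pH was also computed at each temperature alone. At 29.5 °C (T + pH against T, 5 and 3 libraries), 0 of 39230 transcripts passed (0%), the smallest FDR was 0.843 and 1914 had an unadjusted p below 0.05, 593 higher and 1321 lower at pH 7.7. At 27.2 °C (pH against control, 4 libraries each), 0 passed (0%), the smallest FDR was 0.393 and 1447 had an unadjusted p below 0.05, 446 higher and 1001 lower. The 2 effects come from different libraries, and over all transcripts they were uncorrelated (Pearson r = −0.001 across genes, which are not independent). Among the 12738 transcripts with a mean of 10 CPM or more r was 0.073, and 55.3% had the same sign. By abundance, r went from −0.01 below 1 CPM to 0.18 at 100 CPM or more, where 57.8% had the same sign. DESeq2 made 10 calls at 27.2 °C and 3 at 29.5 °C. Of the 10, 9 were lower at pH 7.7, with log2 fold changes of −3.24 to −5.48. Among these were 3 isoforms of DN199275_c1_g1 (18.8% to 23% of their counts in 1 library) and DN196533_c2_g3_i3 (15.4%). For DN178887_c0_g1_i1, DN178887_c0_g1_i2 and DN198128_c1_g2_i4, SD17 of the control held 40.7%, 40.7% and 43.6% of the counts. Of their summed CPM at pH 8.0, SD17 held 70.6%, 70.5% and 73.3%. DN199891_c3_g3_i1 and DN199891_c3_g3_i2 had 26.7% of their counts in SD13. These shares of counts are over all 16 libraries. The 1 higher transcript, DN199651_c2_g1_i9 (log2 fold change 15.88), had 58.2% of its 452 counts in SD8, a library of T outside that contrast. The 3 at 29.5 °C were DN201080_c0_g1_i3, which was higher at pH 7.7, and DN191861_c0_g1_i1 (−5.13, 76.7% of its counts in SD20) and DN193638_c0_g1_i2 (−3.09, 49% in SD8), which were lower. DN193638_c0_g1_i2 also passed in edgeR at 29.5 °C without SD18 (−3.64, FDR = 0.0277), and DN191861_c0_g1_i1 without SD11 (−5.25, FDR = 0.00474).

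**Figure D5:**
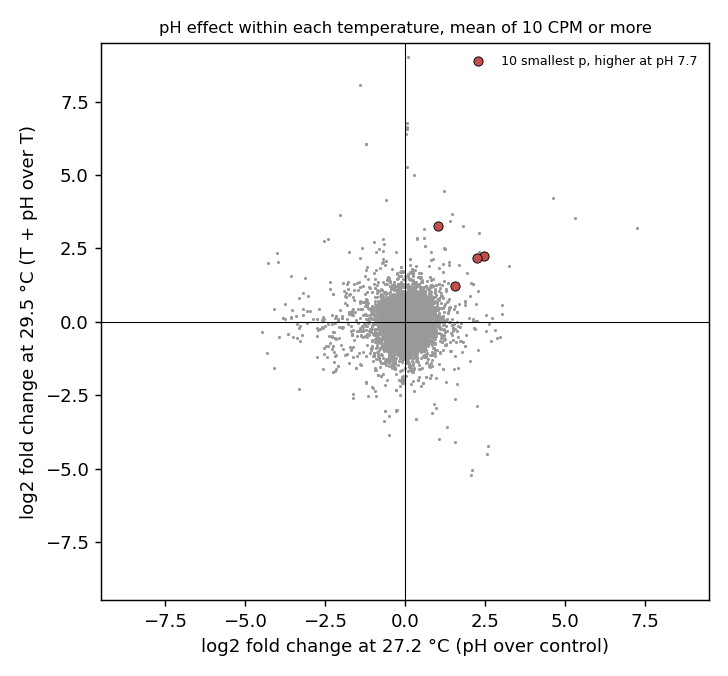
Log2 fold change of pH 7.7 over pH 8.0 at 29.5 °C (T + pH over T) against that at 27.2 °C (pH over control) for 12738 transcripts with a mean of 10 CPM or more. The cloud has little slope (r = 0.073), and the 4 coloured transcripts, higher at pH 7.7 at both temperatures, were selected on the combined contrast.

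The difference between these effects, the interaction of temperature and pH, also gave 0 calls of 39230 (0%), with a smallest FDR of 0.224 and 1646 transcripts at an unadjusted p below 0.05. DN199891_c3_g3_i1 and DN199891_c3_g3_i2, isoforms with the same counts in all libraries, had the smallest p (1.14e-05, FDR = 0.224, edgeR). They had 11 counts in 5 of 9 libraries at pH 7.7 and 19 counts in 5 of 7 at pH 8.0, and their log2 fold change for pH was −5.53 at 27.2 °C (FDR = 0.393) and 3.06 at 29.5 °C (FDR = 0.94). DESeq2 called both at 27.2 °C (−5.48, FDR = 0.0483). At 27.2 °C the only library at pH 7.7 with a count was SD9, with 1, against 2 to 8 counts in all 4 control libraries. At 29.5 °C, 4 of 5 libraries of T + pH had 1 to 3 counts, against 1 count in 1 of 3 libraries of T. For temperature itself, taken with pH in the model, 0 of 39230 passed (0%), with 1984 transcripts at an unadjusted p below 0.05.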

How the data were processed

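Pigmented tissue of 19 S. durum fragments was sequenced by CEL-Seq2. The authors made FASTQ files with bcl2fastq, checked them with FastQC, mapped the reads with bowtie2 to the Trinity transcriptome and counted UMIs. The deposited values are these counts, with 1 column for each library and no normalization or pooling. Their low-count filter is not in the deposited counts, and whether their correction for shared UMIs is could not be told. Transcripts have no genome position here.

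Transcripts whose counts summed to 5 or more in these 16 libraries entered the test (39230 of 185036, in 27707 Trinity genes; 2105 have the same counts as another isoform). They were scaled by TMM and tested with edgeR 4.0.16 (R 4.3.3) by the robust quasi-likelihood F-test in its earlier form, which matches the version the study used, and adjusted by Benjamini-Hochberg. SE is the absolute log2 fold change over the square root of F. The main model had pH and temperature, and a model of 4 treatments gave the effects within temperature. Log2 CPM used a prior count of 2, and single measures were tested by exact permutation within temperature. Pairs of libraries of 1 treatment differed by more than sampling noise (chi-square per degree of freedom 8.32 to 57.7), so none was counted as a copy. Labels call them biological replicates. Totals were 262942 to 21542260 counts, and depth limits scarce transcripts most.

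Named were the 10 transcripts with the smallest p in each direction (1 per Trinity gene), the 5 with RT-qPCR primers (1 of which is not reported here), the 3 with the smallest p in each direction among the 200 most abundant (1 per Trinity gene), calls of comparisons with 5 calls or fewer, and the 2 with the smallest interaction p. Members and lists were chosen with earlier results of these data known. Alternatives were DESeq2 1.42.0, limma-voom (limma 3.58.1), other scalings, filters and library sets, thinning without replacement, and leaving out each library. FDRs of DESeq2 are its own adjusted p under its default filtering. The scripts were tested on simulated data. Figures used Python 3.11.15 and matplotlib 3.10.9.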

Additional observations from a re-analysis of the deposited data

Results flagged for a closer look

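Within the 9 libraries at pH 7.7 and the 7 at pH 8.0, 35 measures and transcripts were examined. In 19 of 68 groups of values, 1 library lay far from the others by a gap rule. Under this rule chance alone marks about 0.05 of groups of normally distributed values. That rate does not hold for the totals and CPM used here, which were not put on a log scale and are skewed. Nor does it hold for transcripts at or near 0 in the other libraries, where a single count stands apart by construction. The 19 of 68 therefore cannot be read as an excess over chance. SD9 at pH 7.7 had 21542260 counts, against 3644235 in the next library, and in SD18 at pH 8.0 the 10 most abundant transcripts held 9.57% of the counts, against 4.85% in the next.

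At pH 7.7, SD9 stood apart in CPM for DN25411_c0_g1_i1, DN127013_c0_g2_i1, DN188288_c0_g1_i2 and DN200323_c1_g1_i5 (0.0395 each, 1 count), DN189069_c0_g1_i1 (0.0791), DN170507_c0_g1_i1 (0.198) and DN184416_c0_g1_i2 (2.92). In the first 6 of these all other libraries at pH 7.7 had no count. Also at pH 7.7, SD7 stood apart for DN40174_c0_g1_i1 (5.34 CPM) and SD6 for DN245878_c0_g1_i1 (0.356 CPM).

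At pH 8.0, SD17 stood apart for DN25411_c0_g1_i1 (2.89 CPM), DN245878_c0_g1_i1 (10.1 CPM) and DN170507_c0_g1_i1 (22.4 CPM). SD8 stood apart for DN127013_c0_g2_i1 (29.4 CPM, next 0.107) and DN194504_c0_g1_i2 (30.9 CPM). SD13 stood apart for DN201080_c0_g1_i3 (35.7 CPM, next 10.6) and DN171931_c0_g1_i1 (0.188 CPM, 1 count), and SD18 for DN200306_c1_g1_i1 (5070 CPM, next 2500).

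In the 3 libraries left out, transcripts without any count in the 16 held 5.07% of the counts of SD1, 4.74% of SD2 and 5.89% of SD5. There were 15077 such transcripts, 8220 of them with at least 5 counts, and no group comparison used them.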

How the results depend on the processing

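The pH term gave 0 calls in all 14 alternatives run for it that did not leave out 1 library. Leaving out 1 library gave 0 to 2 calls: 2 without SD20 and 1 without SD13. Its transcripts at an unadjusted p below 0.05 numbered 1904, against 710 with at least 5 counts in at least 7 libraries and 1151 with thinned libraries, both of which tested fewer transcripts, and 1601 to 2377 without 1 library. The share of these that was higher at pH 7.7 was 37.7%, but 26.2% with DESeq2, 22.6% with limma-voom, 27% without SD9 and SD18, 21.7% with all 19 libraries and 25.4% by listed total. It was nearer to balance, at 45.9%, with at least 5 counts in at least 7 libraries, at 44.9% with thinned libraries and at 43.5% without SD8. The median log2 fold change of all transcripts was −0.04, and −0.16 with DESeq2 or limma-voom. DESeq2 gave 10 calls at 27.2 °C, 3 at 29.5 °C and 1 for the interaction (DN191861_c0_g1_i1, 76.7% of its counts in SD20), the cause of which was not tested. Without 1 library, calls at 29.5 °C were 0 to 3 (3 without SD20) and at 27.2 °C, for the interaction and for temperature 0. Trinity genes gave 1 call with thinned libraries (DN197762_c0_g1, log2 fold change −1.88), 1 without SD9 and SD18 (DN184416_c0_g1, −3.32) and 0 to 3 without 1 library (3 without SD20). The alternative correcting for UMI saturation was chosen after seeing the data and gave 0 calls.

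The difference in log10 total (0.183) turned to −0.17 without SD9 and SD18 and −0.27 by listed total, and was −0.0435 to 0.346 without 1 library. That in the share of the 10 most abundant transcripts (−0.959 percentage points) turned to 0.649 and 0.91 in the same settings, and was −1.73 to 0.292 without 1 library. That in detected transcripts (−147) was −626 to 199 without 1 library. The share of squared distance (6.47%) was 5.92% to 8.27% without 1 library, 3.49% with all 19 libraries and at most 6.44% in the other alternatives.

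Of 934 log2 fold changes of named transcripts under alternatives, 26 changed sign. For DN198856_c0_g2_i4 (0.03) it was −0.02 with DESeq2, −0.03 with DESeq2 size factors, −0.01 with thinned libraries or without SD9 and SD18, −0.03 with all 19 libraries and a term for the 3, and −0.09 to 0.12 without 1 library. For DN199578_c0_g1_i2 (0.05) it was −0.27 with thinned libraries, 0 with the term for the 3, and −0.13 to 0.28 without 1 library. DN193531_c3_g1_i1 turned to −1.38 with all 19 libraries, and DN200306_c1_g1_i1 to 0.15 without SD9 and SD18. By listed total, DN199936_c0_g1_i2 turned to 0.30, DN198016_c0_g5_i1 to −0.22, DN198567_c2_g1_i1 to −0.14, DN198051_c3_g1_i6 to 0.28 and DN200306_c1_g1_i1 to 0.34. No paired analysis was possible because no 2 treatments share a library number. Depth limits transcripts under 10 CPM most, and the median SE of the log2 fold change was 0.88 below 1 CPM and 0.29 at 100 CPM or more.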
